A study of Drosophila melanogaster with 4 samples.

Results

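The cytochrome P450 genes of adult Drosophila melanogaster heads were compared between flies with an activated form of Yorkie in the eye and flies with the eye driver alone. The group was made of every gene symbol formed of Cyp, a family number, subfamily letters and a gene number, without Cyp18a1. This gave 81 of the 16489 symbols counted. The cyclophilins Cyp1, Cyp33 and Cyp40 are left out by that rule, as are P450 genes listed under mutant names, such as the ecdysteroid enzymes of the Halloween group, which are given separately as partners. By family number, 37 of the 81 genes belonged to the CYP3 clan, 32 to the CYP4 clan, 9 to the mitochondrial clan and 3 to the CYP2 clan.

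Heads labelled GMR>yki S168A carried the driver GMR-Gal4, which acts in the developing eye, and a transgene for yki S168A, a Yorkie protein in which a serine that restrains it through the Hippo pathway kinase Warts is replaced (2 libraries). Control heads carried GMR-Gal4 without the transgene (2 libraries). Both groups share the driver, and every library was made from 30 adult heads, so brain, fat body, antennae and cuticle were sampled along with the eye. The sources used here do not give the age or sex of the flies. Count totals were 17311383 and 18108814 in the yki S168A libraries, against 16817968 and 15738860 in the control libraries. Nothing says that the libraries of a group are separate crosses, and the spread on which the p-values rest may therefore be technical. What Yorkie, the inserted transgene and the stock background each contribute cannot be told apart, and in whole heads fewer cells of a type and less RNA per cell cannot be told apart either.

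P450 enzymes bind heme and use oxygen to oxidize fatty acids, hormones, odorants, plant compounds and insecticides. Those of the CYP2, CYP3 and CYP4 clans sit in the endoplasmic reticulum and take electrons from the reductase Cpr, while the mitochondrial clan takes them from adrenodoxin-like ferredoxins. In insects, many CYP6 and CYP9 genes are known for responses to foreign compounds, many CYP4 genes for fatty acid oxidation, and single members for hydrocarbons, courtship, aggression and cuticle.

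Of the 81 genes, 70 had enough counts to be tested. In yki S168A heads 16 were higher and 13 lower, and 41 did not pass (edgeR quasi-likelihood test, Benjamini-Hochberg adjusted over all 10896 genes tested, threshold 0.05). The called share was 41.4%, against 27.6% of all tested genes. It was 22.9% for genes higher in yki S168A heads, where 15.1% of all tested genes passed, and 18.6% for genes lower, where 12.5% of all passed. Over 2-fold, 11 were higher (8.14% of all tested genes) and 3 lower (5.76% of all). Both counts of lower genes include Cyp6a16, which had 0 counts in both yki S168A libraries and could only be called lower. The median log2 fold change of the 70 genes was −0.12, and that of all tested genes 0.01. For 24 genes both yki S168A libraries lay above both control libraries (32.1% of all tested genes), and for 23 both lay below (31.2% of all). All 29 called genes had such separated libraries, and 18 of the genes that did not pass had them too. Without control replicate 1 the counts were 17 higher (8.74% of all tested genes) and 2 lower (5.79% of all), and without control replicate 2 they were 14 higher (9.27%) and 8 lower (5.73%). Without yki S168A replicate 1 they were 16 higher (13.4%) and 14 lower (10%), and without yki S168A replicate 2 they were 20 higher (14.9%) and 9 lower (12.7%). With upper-quartile factors 16 were higher (11.7%) and 18 lower (17.7%).

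**Figure D1:**
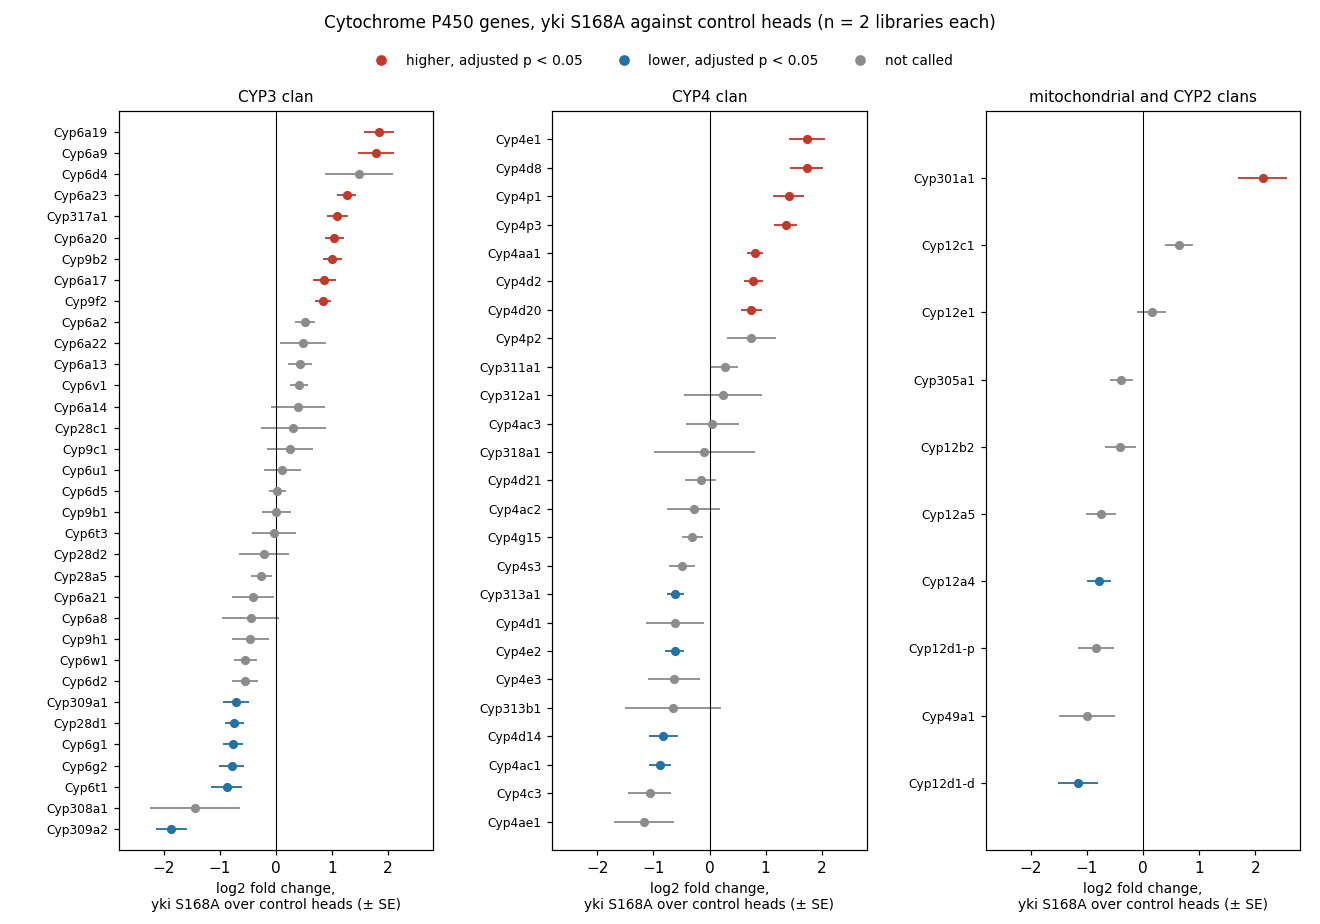
Log2 fold change of yki S168A over control heads for 69 tested P450 genes, by clan (2 libraries in each group). Bars show ± 1 SE derived from the edgeR fit. Red points mark the genes called higher and blue points those called lower. Cyp6a16, which had 0 counts in both yki S168A libraries, is not drawn. Higher and lower genes occur together in the CYP3 and CYP4 clans, and Cyp301a1 has the highest value, 2.13.

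The summed level of the 81 P450 genes of the group overlapped between yki S168A and control heads, while its make-up differed. CPM are counts per 1000000 counts of a library, with library sizes scaled by TMM factors. Summed over the 81 genes, their RNA was at 2075 and 1773 CPM in yki S168A heads, against 1891 and 1823 CPM in control heads. The means were 1924 ± 214 CPM in yki S168A and 1857 ± 48.4 CPM in control heads (SD, n = 2 each). The log2 ratio was 0.05 (two-sided exact permutation p = 1, where 0.333 is the smallest that 2 against 2 libraries allow), and it was −0.06 with CPM taken by library total and −0.11 with upper-quartile factors. The 16 genes called higher together held 782 and 701 CPM in yki S168A heads, against 369 and 349 CPM in control heads. The 13 genes called lower together held 414 and 320 CPM in yki S168A heads, against 666 and 583 CPM in control heads. The calls chose the genes of both sums, so these values are a description. The sum over the 81 genes leaves out Cyp18a1 and the P450 genes listed under mutant names. Of these, sad (Cyp315a1) alone was at 1000.5 and 836 CPM in yki S168A heads, against 30.2 and 27.99 CPM in control heads. Cyp18a1 and dib (Cyp302a1) were lower in yki S168A heads. The overlap of the summed levels therefore holds for the 81 genes only.

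**Figure D2:**
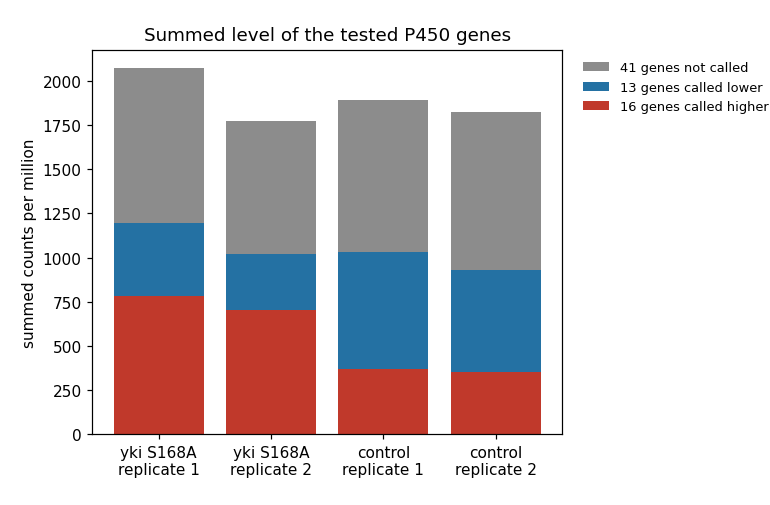
Summed level of the 70 tested P450 genes in each library, in CPM, divided into the genes called higher, lower and not called in yki S168A heads. The part called higher reached 782 and 701 in yki S168A heads, against 369 and 349 in control heads.

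The most abundant members were partly shared between the groups. Per kilobase of exon, Cyp6d5, a phenobarbital-inducible gene, was the most abundant member in both, with 141 ± 17.7 CPM per kb in yki S168A and 138 ± 0.201 CPM per kb in control heads (SD, n = 2 each). Its levels in the libraries overlapped, at 252 and 210 CPM in yki S168A heads and 226 and 227 CPM in control heads, and the 95% interval of its log2 fold change ran from −0.29 to 0.35. In control heads the next in order were Cyp28d1, Cyp313a1, Cyp6w1 and Cyp6g1, and 7 of the 10 highest members per kb were called lower in yki S168A heads and 1 higher. In yki S168A heads the next were Cyp9f2, Cyp6a23, Cyp9b2, Cyp4aa1 and Cyp6a20, all called higher. Between the 10 highest of each group 6 genes were shared. Cyp9f2 was at 57.7 ± 5.94 CPM per kb in yki S168A and 32.3 ± 0.0967 CPM per kb in control heads. Cyp28d1 was at 40.7 ± 6.997 CPM per kb in yki S168A and 67.9 ± 9.55 CPM per kb in control heads. Each set of 10 was chosen by its level in a single group, so its calls are a description. Among all tested genes 15.1% were higher and 12.5% lower.

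The CYP6A subfamily had the most tested genes. Of its 13 genes 12 were tested, and 5 were higher and 1 lower in yki S168A heads, where 15.1% of all tested genes were higher and 12.5% lower. The lower gene, Cyp6a16, was tested only through its control counts. The summed level below covers all 13 genes. The summed level of the subfamily was 345.5 and 306.3 CPM in yki S168A heads, against 184 and 161 CPM in control heads, a ratio of 1.89. The 5 higher genes lie in a cluster of 9 P450 genes on chromosome 2R, 14871366 to 14903095 (dm6 coordinates), 31.7 kb long. Of its 9 genes 6 rose, namely Cyp6a17, Cyp6a23, Cyp6a19, Cyp6a9, Cyp6a20 and Cyp317a1. By edgeR 0 of the 9 fell, with 0 lower also at an unadjusted p below 0.05 and by DESeq2 and limma-voom.

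Cyp6a20, known for its part in male aggression and for expression in support cells of olfactory sensilla, had 82.6 and 64.6 CPM in yki S168A heads, against 37.0 and 34.5 CPM in control heads. The log2 fold change of Cyp6a20 was 1.04 ± 0.17 (SE), with an adjusted p of 0.00108 by edgeR. Both yki S168A libraries lay above both control libraries, as they did for each of the other 5 higher genes of the cluster. The antennal markers fixed as a list did not all move with it. Of 9 tested, 1 was higher (Obp19d) and 3 were lower (Obp83a, Obp83b and a10), and Ir8a had 0 counts in every library. Among all tested genes 15.1% were higher and 12.5% lower. The summed level of that list, nearly all of it Obp19d, ran from 3060 to 3712 CPM in yki S168A heads and from 1744 to 2046 CPM in control heads. The part of antennal tissue in the Cyp6a20 difference was not tested.

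Cyp6a23 had the highest level among the higher genes of the cluster. It was at 102 and 91.8 CPM in yki S168A heads and at 45.1 and 35.5 CPM in control heads, with a log2 fold change of 1.26 ± 0.17 (SE, adjusted p = 0.000216 by edgeR, the lowest of any member). Its neighbour and close relative Cyp6a17, known for a role in temperature preference, had 31.1 and 27.9 CPM in yki S168A heads, against 17.8 and 14.7 CPM in control heads. The Cyp6a17 log2 fold change was 0.86 (edgeR adjusted p = 0.00969), and without control replicate 2 it was 0.72 (adjusted p = 0.111). Cyp6a17, Cyp6a22 and Cyp6a23 are tandem copies, and the sources used here do not say how reads that match several copies were counted, so values of single copies are uncertain.

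Cyp6a19 and Cyp6a9 had the largest fold changes of the cluster. Cyp6a19 had 21.4 and 21.1 CPM in yki S168A heads, against 6.97 and 4.85 CPM in control heads (log2 fold change 1.84 ± 0.27, edgeR adjusted p = 0.000468). Cyp6a9 had 15.9 and 15.2 CPM in yki S168A heads, against 5.60 and 3.38 CPM in control heads (log2 fold change 1.78 ± 0.32, edgeR adjusted p = 0.00165). Their exons face each other on opposite strands over 20.8% of the exon bases of Cyp6a19 and 20.2% of those of Cyp6a9, so part of their reads may have been shared. Cyp317a1, at the far end of the cluster, had 33.5 and 36.4 CPM in yki S168A heads and 15.99 and 16.7 CPM in control heads (log2 fold change 1.098, edgeR adjusted p = 0.00142). For 32.6% of its exon bases it lies opposite Kank, whose log2 fold change was 0.26 (adjusted p = 0.252).

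The other members of the cluster did not pass. Cyp6a22 had 4.92 and 5.05 CPM in yki S168A heads and 4.40 and 2.70 CPM in control heads, and Cyp6a21 had 3.76 and 5.67 CPM in yki S168A heads and 6.34 and 6.26 CPM in control heads. Cyp6a8, a gene known to be induced by caffeine and phenobarbital, had 1.58 and 2.55 CPM in yki S168A heads, against 2.46 and 3.25 CPM in control heads, with overlapping libraries and a 95% interval of the log2 fold change from −1.57 to 0.67. Within 50 kb on either side, 14 other genes were tested, and by edgeR 0 were higher and 0 lower. DESeq2 and limma-voom also called 0, and at an unadjusted p below 0.05 edgeR gave 0 higher and 3 lower. Their log2 fold changes ran from −1.25 to 0.87 (lowest adjusted p = 0.0688).

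**Figure D3:**
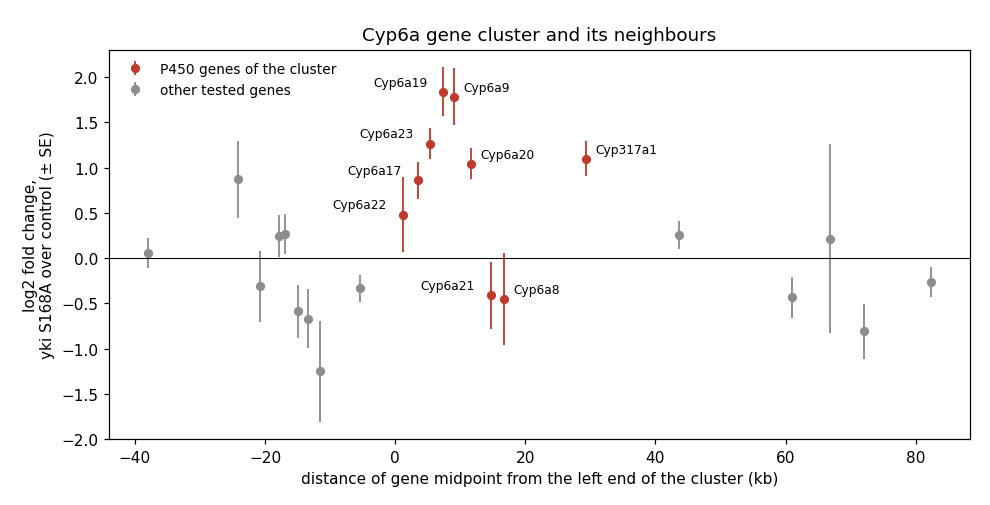
Log2 fold change of yki S168A over control heads (± 1 SE, edgeR, 2 libraries in each group) against the distance of each gene's midpoint from the left end of the Cyp6a cluster, in kb. Red points are the 9 P450 genes of the cluster and grey points the 14 other tested genes within 50 kb. The 6 called P450 genes lie between 0.86 and 1.84, and the other genes lie between −1.25 and 0.87.

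Outside the cluster the CYP6A genes varied. Cyp6a2, known from DDT resistance, had 49.96 and 42.9 CPM in yki S168A heads, against 28.7 and 36.0 CPM in control heads. Its libraries did not overlap, but the log2 fold change of 0.52 (95% interval 0.12 to 0.92) missed the threshold (edgeR adjusted p = 0.0537). Cyp6a13 had a log2 fold change of 0.42 (adjusted p = 0.176) and Cyp6a14 of 0.39 (adjusted p = 0.602). Cyp6a16 had 0 and 0 counts in the yki S168A libraries, against 38 and 14 counts in the control libraries. Only the control libraries brought Cyp6a16 through the filter on low counts. It could therefore only be called lower, and its call is a description. Set against a floor of 3 counts per library it was at least 8.60-fold lower, at least 4.88-fold lower without control replicate 1 and at least 12.3-fold lower without control replicate 2. Its edgeR adjusted p was 0.0126, and 0.0574 and 0.0576 without yki S168A replicate 1 and without yki S168A replicate 2.

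The CYP9 family, whose members are best known from responses to foreign compounds, had 2 of 5 genes higher. Among all tested genes 15.1% were higher. Summed, the family was at 233 and 187 CPM in yki S168A heads, against 124 and 129 CPM in control heads. Cyp9f2 had 109 and 94.0 CPM in yki S168A heads and 56.6 and 56.8 CPM in control heads, with a log2 fold change of 0.84 ± 0.15 (SE, adjusted p = 0.00175 by edgeR). Cyp9b2 had 94.9 and 70.9 CPM in yki S168A heads and 40.9 and 41.6 CPM in control heads, with a log2 fold change of 1.006 (edgeR adjusted p = 0.00145). Its tandem neighbour Cyp9b1 overlapped between the groups, at 10.6 and 11.3 CPM in yki S168A heads and 10.7 and 11.05 CPM in control heads (log2 fold change 0.01, 95% interval −0.57 to 0.58). Of the 8 other genes tested within 50 kb of this pair, 5 were higher, where 16.8% of the tested 2R genes other than P450 members were higher.

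In the CYP4 clan 7 of 25 tested genes were higher and 4 lower, where 15.1% of all tested genes were higher and 12.5% lower. All 7 higher genes belonged to the CYP4 family, which also holds 20 of the 25 tested genes of the clan. Enzymes of this family hydroxylate fatty acids at or near the chain end in many animals. In the CYP4P subfamily 2 of 3 genes were higher. Cyp4p3 had 31.6 and 32.3 CPM in yki S168A heads, against 11.2 and 13.8 CPM in control heads (log2 fold change 1.36 ± 0.21, edgeR adjusted p = 0.00067). Cyp4p1 had 17.0 and 26.1 CPM in yki S168A heads, against 8.45 and 7.80 CPM in control heads (log2 fold change 1.41 ± 0.28, edgeR adjusted p = 0.00315). Cyp4p2 was at 5.34 and 6.41 CPM in yki S168A heads and 4.80 and 2.15 CPM in control heads, which did not pass (adjusted p = 0.24). Summed, the subfamily was at 54.0 and 64.8 CPM in yki S168A heads, against 24.4 and 23.8 CPM in control heads, a ratio of 2.46.

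Neighbouring CYP4E genes went opposite ways. Cyp4e1 had 20.6 and 12.9 CPM in yki S168A heads, against 5.37 and 4.66 CPM in control heads (log2 fold change 1.73 ± 0.32, edgeR adjusted p = 0.00226). Cyp4e2, which ends 286 bases before Cyp4e1 begins on chromosome 2R, had 46.5 and 38.5 CPM in yki S168A heads, against 67.8 and 63.0 CPM in control heads. The log2 fold change of Cyp4e2 was −0.62 ± 0.16 (SE), with an adjusted p of 0.0153 by edgeR, and the adjusted p was 0.133 without control replicate 1 and 0.066 without control replicate 2. The libraries of the groups were separate for both genes. Cyp4e3 did not pass, at 2.97 and 9.42 CPM in yki S168A heads and 7.37 and 12.1 CPM in control heads.

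Of the 6 CYP4D genes 3 were higher and 1 lower, where 15.1% of all tested genes were higher and 12.5% lower. Cyp4d8 had 20.2 and 15.7 CPM in yki S168A heads, against 6.23 and 4.54 CPM in control heads (log2 fold change 1.73 ± 0.29, edgeR adjusted p = 0.00127). Cyp4d20 had 35.1 and 32.0 CPM in yki S168A heads, against 21.6 and 18.3 CPM in control heads (log2 fold change 0.75, edgeR adjusted p = 0.0137), and without control replicate 2 its adjusted p was 0.148. Cyp4d21, also called sex-specific enzyme 1 and known from the head fat body of males and from courtship, had 31.7 and 16.1 CPM in yki S168A heads, against 26.3 and 26.9 CPM in control heads. Its groups overlapped, and the 95% interval of its log2 fold change ran from −0.76 to 0.44.

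For 2 CYP4D genes the counts cannot be given to a strand. Cyp4d2 had 1088 and 985 counts in the yki S168A libraries, against 622 and 577 counts in the control libraries (log2 fold change 0.78, edgeR adjusted p = 0.00468). The antisense transcript CR44690, which lies opposite 98.7% of its exon bases, had 1080 and 1005 counts in the yki S168A libraries and 645 and 589 in the control libraries, close to the Cyp4d2 counts in every library. Cyp4d14 had 8.92 and 9.08 CPM in yki S168A heads, against 17.8 and 14.1 CPM in control heads (log2 fold change −0.82, edgeR adjusted p = 0.0361). It lies over 97.2% of its exon bases opposite the gene for a subunit of mitochondrial complex I, which was also lower (log2 fold change −0.46, adjusted p = 0.0322), and an antisense transcript. Without any 1 of the 4 libraries Cyp4d14 did not pass, with adjusted p-values from 0.0615 to 0.288.

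Among the remaining CYP4 clan genes, Cyp4aa1 was at 93.7 and 92.9 CPM in yki S168A heads and at 52.8 and 53.7 CPM in control heads (log2 fold change 0.81 ± 0.14, edgeR adjusted p = 0.00172). Within each group its libraries differed by less than 1 CPM. Cyp4ac1 had 18.9 and 16.7 CPM in yki S168A heads, against 33.7 and 31.7 CPM in control heads (log2 fold change −0.88, edgeR adjusted p = 0.00582). Its tandem neighbours Cyp4ac2 and Cyp4ac3 overlapped between the groups. Cyp313a1 had 60.4 and 54.5 CPM in yki S168A heads, against 81.7 and 93.5 CPM in control heads (log2 fold change −0.61, edgeR adjusted p = 0.0127). The adjusted p of Cyp4ac1 was 0.0553 without control replicate 1, and that of Cyp313a1 was 0.156 without control replicate 2.

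The 2 CYP4G genes of the fly are known for hydrocarbon synthesis in oenocytes (Cyp4g1) and for expression in the nervous system (Cyp4g15). Cyp4g15 had 48.0 and 55.0 CPM in yki S168A heads, against 53.4 and 73.8 CPM in control heads, with overlapping libraries and a log2 fold change of −0.30 (95% interval −0.71 to 0.10). Cyp4g1 had 0 and 0 counts in the yki S168A libraries, against 1 and 0 counts in the control libraries. The next gene on the chromosome, ebo, was counted at 266 and 258 in the yki S168A libraries and 224 and 237 in the control libraries. On the other side, ase had 0 counts in every library. Whether reads of Cyp4g1 were missed in the counting could not be checked, so its counts do not settle whether heads express it. Of 6 oenocyte markers, Fad2 (desatF) and eloF had 0 counts in every library and 4 were tested. Of these svp and salm, transcription factor genes that act in other cells too, were lower, at log2 fold changes of −0.91 and −1.60 (edgeR adjusted p = 0.00157 and 0.00434). The fatty acid synthase genes v(2)k05816 (FASN2) and CG17374 (FASN3) did not pass, at 2.06 and 2.38 CPM (FASN2) and 2.37 and 1.19 CPM (FASN3) in yki S168A heads, against 0.343 and 0.859 CPM (FASN2) and 1.26 and 0.614 CPM (FASN3) in control heads. At these depths 3 counts correspond to 0.166 to 0.191 CPM taken by library total, without the TMM scaling of the values above. That is the level that a count of 0 allows, for counting error alone.

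Of the 35 tested CYP3 clan genes 8 were higher and 7 lower, where 15.1% of all tested genes were higher and 12.5% lower. The 7 include Cyp6a16, which could only be called lower. Of the lower ones 5 belonged to the CYP6G subfamily and the CYP309 and CYP28 families. Cyp6g1, known from DDT resistance, had 68.7 and 51.9 CPM in yki S168A heads, against 113 and 91.9 CPM in control heads (log2 fold change −0.77 ± 0.18, edgeR adjusted p = 0.00793). Cyp6g2, known from the corpus allatum and from insecticide resistance when overexpressed, had 35.0 and 27.5 CPM in yki S168A heads, against 65.4 and 42.4 CPM in control heads (log2 fold change −0.79, edgeR adjusted p = 0.0216). Next to them, Cyp6t3, known from ecdysteroid synthesis in the larval ring gland, had 4.25 and 4.20 CPM in yki S168A heads and 4.40 and 4.24 CPM in control heads (95% interval of the log2 fold change −0.88 to 0.82). Of the 22 other genes tested within 50 kb of these 3, 7 were higher, where 16.8% of the tested 2R genes other than P450 members were higher.

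The 2 CYP309 genes lie 55 bases apart on chromosome 2L, and both were lower. Cyp309a2 had 4.61 and 5.90 CPM in yki S168A heads, against 20.9 and 17.5 CPM in control heads (log2 fold change −1.86 ± 0.28, edgeR adjusted p = 0.000544), and of all 13 lower genes it alone passed under all 13 alternative settings. Cyp309a1 had 40.4 and 23.7 CPM in yki S168A heads, against 55.5 and 48.98 CPM in control heads (log2 fold change −0.71, edgeR adjusted p = 0.04). Cyp28d1, known from nicotine resistance, had 73.9 and 57.9 CPM in yki S168A heads, against 121 and 98.9 CPM in control heads (log2 fold change −0.74 ± 0.17, edgeR adjusted p = 0.00793). Its neighbour Cyp28d2 overlapped between the groups.

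Several of these calls were lost when 1 library was left out, for some genes whichever of several libraries that was. Without control replicate 1, the adjusted p was 0.096 for Cyp6g1, 0.306 for Cyp6g2, 0.105 for Cyp28d1 and 0.168 for Cyp309a1. Without yki S168A replicate 2 it was 0.081 for Cyp6g2 and 0.141 for Cyp309a1, and without control replicate 2 it was 0.0652 for Cyp309a1, which also missed the threshold with no filter on low counts (0.0619). Cyp6t1 had 8.86 and 6.47 CPM in yki S168A heads, against 14.3 and 13.9 CPM in control heads (log2 fold change −0.88, edgeR adjusted p = 0.037). Its adjusted p ran from 0.117 to 0.16 without yki S168A replicate 2, control replicate 1 or control replicate 2. Cyp6w1 had 101 and 62.6 CPM in yki S168A heads, against 114 and 124 CPM in control heads, and its log2 fold change of −0.54 did not pass (95% interval −0.99 to −0.10, edgeR adjusted p = 0.0677). Cyp308a1 had 4 and 11 counts in the yki S168A libraries, against 22 and 19 in the control libraries, and did not pass (edgeR adjusted p = 0.214).

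**Figure D4:**
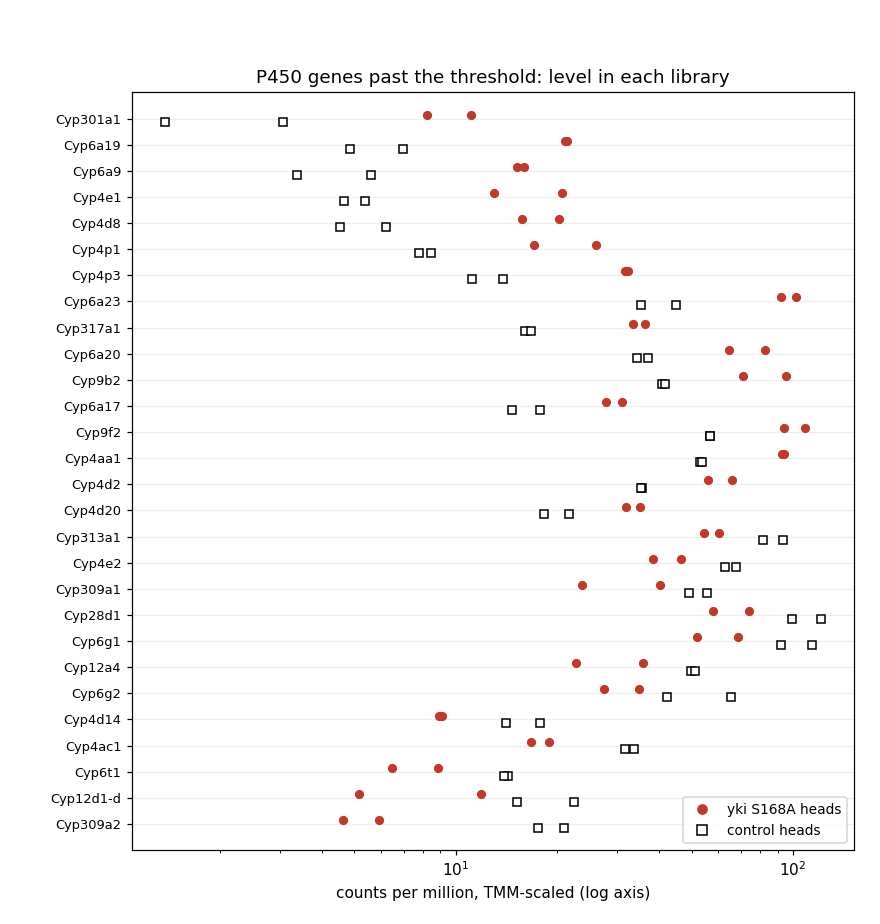
Level of 28 of the 29 called P450 genes in each library, in CPM on a log axis, with filled circles for yki S168A heads and open squares for control heads. Cyp6a16, at 0 in both yki S168A libraries, is not drawn. The 16 genes at the top are higher in both yki S168A libraries than in both control libraries, and the 12 below them are lower in both.

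Of the 9 tested genes of the group in the mitochondrial clan, 1 was higher and 2 lower, where 15.1% of all tested genes were higher and 12.5% lower. The median log2 fold change of these 9 genes was −0.75. These values leave out P450 genes listed under mutant names, such as sad and dib. The mitochondrial P450 gene sad had a log2 fold change of 4.98, and dib of −0.91. Cyp301a1, known for its part in forming the adult cuticle, had 8.195 and 11.1 CPM in yki S168A heads, against 1.37 and 3.07 CPM in control heads. Its log2 fold change of 2.13 ± 0.43 was the largest of any member (SE, edgeR adjusted p = 0.00381), although its counts were low, at 135 and 195 in the yki S168A libraries against 24 and 50 in the control libraries.

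The CYP12 family held the lower genes, 2 of 7, where 12.5% of all tested genes were lower. The sum of the family was 147 and 98.7 CPM in yki S168A heads, against 185 and 150 CPM in control heads. Cyp12a4, known from lufenuron resistance, had 35.9 and 22.8 CPM in yki S168A heads, against 49.8 and 51.1 CPM in control heads (log2 fold change −0.79, edgeR adjusted p = 0.0174). Its adjusted p ran from 0.0543 to 0.07 without yki S168A replicate 2, control replicate 1 or control replicate 2. Cyp12d1-d had 11.9 and 5.16 CPM in yki S168A heads, against 22.4 and 15.2 CPM in control heads (log2 fold change −1.15, edgeR adjusted p = 0.0332), and the adjusted p was 0.127 without yki S168A replicate 2 and 0.207 without control replicate 1. Its near-identical copy Cyp12d1-p had 25.4 and 12.7 CPM in yki S168A heads and 42.8 and 25.0 CPM in control heads, which did not pass (adjusted p = 0.0746). Reads could have been split between these copies, so the separate values are uncertain. Cyp12c1 went the other way at 37.5 and 23.7 CPM in yki S168A heads and 21.8 and 17.2 CPM in control heads, and did not pass (log2 fold change 0.64, adjusted p = 0.0741).

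Of the 3 CYP2 clan genes in the group 1 was tested, Cyp305a1. It was at 16.7 and 16.3 CPM in yki S168A heads and 21.3 and 21.9 CPM in control heads. Its libraries were separate, but the log2 fold change of −0.39 did not pass (95% interval −0.84 to 0.07, edgeR adjusted p = 0.195). Cyp303a1, known from the development of sensory bristles, had 0 counts in every library. Cyp304a1 had 1 and 4 counts in the yki S168A libraries and 0 in both control libraries. Cyp18a1, an ecdysteroid-inactivating P450 outside the group described here, had 16.2 and 19.3 CPM in yki S168A heads, against 48.4 and 59.7 CPM in control heads.

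Of the 11 genes not tested, 4 had 0 counts in all 4 libraries, namely Cyp6a18, Cyp303a1, Cyp313a2 and Cyp313a5. Cyp310a1, known as a regulator of Wingless signaling, had 0 and 0 counts in the yki S168A libraries, against 7 and 3 in the control libraries. Cyp4ad1 had 12 and 0 counts and Cyp313a3 had 6 and 0 counts in the yki S168A libraries, and both had 0 in the control libraries. Cyp313a4 had 0 and 5 counts in the yki S168A libraries and 0 and 3 in the control libraries, and Cyp316a1 had 0 and 0 counts in the yki S168A libraries and 3 and 0 in the control libraries. These counts are too few to compare.

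Most of the P450 genes called higher lie on chromosome arm 2R. On 2R, 12 of 33 tested P450 genes were higher and 4 lower in yki S168A heads, where 16.8% of the other tested genes of that arm were higher and 13.7% lower. On 2L, 0 of 11 were higher and 5 lower, where 14.0% of the other genes were higher and 12.2% lower. The 5 lower genes on 2L include Cyp6a16, which could only be called lower. On X, 1 of 12 was higher and 2 lower (15.3% and 13.8% of the other genes). On 3R, 1 of 9 was higher and 2 lower (15.2% and 11.6%), and on 3L, 2 of 5 were higher and 0 lower (14.2% and 11.2%). Neighbouring P450 genes are not independent, since 44 of the 81 lie in 15 clusters, and 6 of the 12 higher genes on 2R lie in the Cyp6a cluster. The counts of 0 on 2L and 3L were also 0 at an unadjusted edgeR p below 0.05 and by DESeq2 and limma-voom, and the difference between arms was not tested.

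The genes that serve P450 enzymes were counted as lists, to be read beside the 15.1% of all tested genes that were higher and the 12.5% that were lower. In each count of 0 in these lists, DESeq2 and limma-voom gave 0 as well. Of 8 reductases and electron donors, 0 were higher and 2 lower by edgeR, with 1 higher at an unadjusted p below 0.05. Cpr, the reductase that supplies the microsomal P450s, had 83.9 and 75.4 CPM in yki S168A heads, against 79.4 and 68.9 CPM in control heads, with overlapping libraries (log2 fold change 0.10, adjusted p = 0.673). The lower genes were Cyt-b5-r, a cytochrome b5-related gene, at 503 and 352 CPM in yki S168A heads against 1157 and 1037 CPM in control heads (log2 fold change −1.36, edgeR adjusted p = 0.000327), and CG5946. The CG5946 call, at a log2 fold change of −0.61 (edgeR adjusted p = 0.0375), did not pass with no filter (0.0603), without yki S168A replicate 2 (0.0892), without control replicate 1 (0.0875) or without control replicate 2 (0.181). CG6870, another cytochrome b5-like gene, did not pass (log2 fold change 0.32, adjusted p = 0.122).

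Of 9 genes of heme synthesis and breakdown 0 passed by edgeR, and 1 was higher at an unadjusted p below 0.05. Their median log2 fold change was 0.18. The nearest to the threshold was Updo, uroporphyrinogen decarboxylase, with 61.9 and 58.9 CPM in yki S168A heads and 48.4 and 43.1 CPM in control heads (log2 fold change 0.40, edgeR adjusted p = 0.0797). Among 6 regulators of the xenobiotic response, including cnc, Keap1 and the nuclear receptor gene Hr96, 0 passed, and 0 did at an unadjusted p below 0.05. The oxidative stress regulator cnc had 412 and 390 CPM in yki S168A heads and 332 and 352 CPM in control heads (log2 fold change 0.23, edgeR adjusted p = 0.26). Of 17 UDP-glycosyltransferase genes 7 were tested and 0 passed, with 1 lower at an unadjusted p below 0.05. The lowest adjusted p was that of Ugt86Dd (log2 fold change −0.69, edgeR adjusted p = 0.104).

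Hormone and hydrocarbon synthesis gave 2 further lists, to be read beside the same 15.1% higher and 12.5% lower of all tested genes. Of 8 Halloween P450s and ecdysteroid partners 6 were tested, with 1 higher and 1 lower. sad, the mitochondrial P450 Cyp315a1 of ecdysteroid synthesis, had 1000.5 and 836 CPM in yki S168A heads, against 30.2 and 27.99 CPM in control heads (log2 fold change 4.98, edgeR adjusted p = 3.27e-08). dib (Cyp302a1), the enzyme of the preceding step, had 10.99 and 13.2 CPM in yki S168A heads, against 22.2 and 23.5 CPM in control heads (log2 fold change −0.91, edgeR adjusted p = 0.0108), and it did not pass without control replicate 1 (0.0502) or without control replicate 2 (0.0783). Of 13 genes of hydrocarbon and very long chain fatty acid synthesis 10 were tested, with 0 higher (1 at an unadjusted p below 0.05) and 4 lower. The desaturase gene Desat1 had 586 and 424 CPM in yki S168A heads, against 994 and 990 CPM in control heads (log2 fold change −0.97, edgeR adjusted p = 0.00212). The fatty acid synthase gene CG3523 (FASN1) had a log2 fold change of −0.64 (edgeR adjusted p = 0.00683) and the ketoacyl reductase gene CG1444 (spidey) of −0.57 (edgeR adjusted p = 0.0104). Without control replicate 1 or without control replicate 2 neither passed, with adjusted p-values from 0.0681 to 0.135. The other lower gene, CG18031 (FarO), did not pass without yki S168A replicate 1 (0.0617) or without control replicate 1 (0.0615).

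Most fat body, photoreceptor and female markers were lower in yki S168A heads, while most glial and male markers did not pass, where 15.1% of all tested genes were higher and 12.5% lower. Of 9 fat body markers 7 were lower by edgeR, 6 by DESeq2 and 8 by limma-voom. Fbp1 was called higher by edgeR but by neither other tool, and its libraries overlapped, at 14.8 and 44.5 CPM in yki S168A heads and 5.65 and 16.1 CPM in control heads. The summed level of the fat body markers was 24829 and 15208 CPM in yki S168A heads, against 61514 and 71736 CPM in control heads. The sum was mostly yolk protein RNA. All 4 female markers were lower by edgeR and limma-voom and 3 by DESeq2. Of 4 male markers 1 was lower (to), and the male-specific RNA roX1 did not pass. The 4 female markers, Yp1, Yp2, Yp3 and fit, are also in the fat body list, as is to, so the lists share these calls. The fat body markers in neither sex list were Lsp2, Fbp1, apolpp and Lsd-1, of which apolpp and Lsd-1 were lower by edgeR. All 5 photoreceptor markers were lower, and their sum was 1763 and 2045 CPM in yki S168A heads, against 5722 and 5702 CPM in control heads. Of 8 glial markers 1 was higher, moody, at 194 and 199.96 CPM in yki S168A heads against 39.6 and 39.3 CPM in control heads. Of 5 digestive protease genes in the midgut list, 2 had 0 counts in every library and the others at most 0.607 CPM in any library, while the amylase gene Amy-p had 59.0 and 26.9 CPM in yki S168A heads and 23.3 and 19.9 CPM in control heads. Of the 3 Malpighian tubule markers Uro had 0 counts in every library. Best2 was higher, at 59.1 and 65.3 CPM in yki S168A heads against 33.2 and 30.6 CPM in control heads. Irk3 did not pass, with overlapping libraries (log2 fold change −0.07, edgeR adjusted p = 0.893). The part of these tissues, and of the sex of the flies, in the P450 differences was not tested.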

How the data were processed

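Each library came as a table of unnormalized gene counts that the authors deposited. The build, dm6, is from the submitters' processing notes, while aligner, counter and strand setting are not given in the sources used. Lines sharing a symbol (37 of 16509) were summed. Of 16489 symbols, 16271 (98.7%), with all 81 P450 genes, matched the Ensembl release 115 annotation, which gave coordinates, exon lengths and overlaps. Counts were compared with edgeR 4.0.16 in R 4.3.3 (filterByExpr, TMM, glmQLFit without its legacy mode, glmQLFTest, group as sole term, Benjamini-Hochberg over 10896 genes, threshold 0.05), which was tested on simulated data. The biological coefficient of variation was 20.7%. Alternatives used other scalings and filters, DESeq2 1.42.0, limma-voom (limma 3.58.1), a replicate block, left-out libraries, and the legacy fit, chosen after seeing the data. Members, lists and clans were chosen with earlier results of these data known. Named were members called at a mean of at least 1 CPM, the 10 highest per kb, members with known roles and, of each partner list, those of smallest p. P450 genes within 20 kb of each other formed clusters. The 95% intervals come from the edgeR fit and include the spread between libraries, while floors cover counting error only.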

Additional observations from a re-analysis of the deposited data

How the results depend on the processing

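Of the 29 called genes, 15 (14 higher, and Cyp309a2) passed in the same direction under each of 13 alternatives that gave a value, and 0 of the 29 changed sign. Cyp6a9, Cyp301a1 and Cyp6a16 fell below the 10 CPM filter and so had no value there, nor had Cyp6a16 without control replicate 1. The other 14 lost the call with 1 library left out, and Cyp309a1 also with no filter. Upper-quartile factors moved the median log2 fold change of all genes to −0.15. They gave 4 lower mitochondrial clan genes and 1 lower glycosyltransferase gene. The filter at a mean of 10 CPM left 0 higher mitochondrial clan genes. Same-numbered libraries share only a number (correlation of their deviations 0.02). With a replicate block 19 P450 genes were higher and 17 lower (17.5% and 15.8% of all tested genes), among them 2 higher and 4 lower mitochondrial clan genes and 1 higher heme gene, and with no filter there was 1 lower reductase gene. With each library left out in turn, the lower genes numbered 2 to 14 among all P450s, 1 to 7 in the CYP3 clan, 1 to 5 in the CYP4 clan and 0 to 3 in the mitochondrial clan, where 1 to 2 were higher. Lower partner genes then numbered 1 to 2 (reductases), 0 to 1 (Halloween), 1 to 5 (hydrocarbon) and 0 to 1 (glycosyltransferases). The log2 ratio of the summed levels of the 81 genes was −0.0597 by library totals, −0.11 with upper-quartile factors and −0.0671 to 0.16 with libraries left out. Among genes not called, the log2 fold change of Cyp6d5 was −0.13 with upper-quartile factors, −0.00325 with the 10 CPM filter and −0.11 to 0.15 with libraries left out. The log2 fold change of Cyp9b1 was −0.15 with upper-quartile factors, −0.0182 with RLE factors, −0.019 with DESeq2, −0.0266 with the 10 CPM filter, −0.00123 with 1 entry per set of identical counts and −0.0471 to 0.0496 with libraries left out. The log2 fold change of Cpr was −0.0581 with upper-quartile factors, and with libraries left out that of Cyp4d21 ran from −0.73 to 0.25 and Cyp6a14 from −0.24 to 1.58. The causes of these changes were not tested. With 2 libraries in each group, calls near the threshold can be lost when 1 library is left out. The share of all tested genes called lower also changed with the library left out. The counts with libraries left out are to be read beside those shares, given above with the counts for all P450 genes.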

Other observations

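In the cluster of Cyp4d1, Cyp4d14, Cyp4d2 and Cyp4ae1 on X, 1 gene was higher and 1 lower, while 2 of 23 other tested genes within 50 kb were higher and 8 lower. In that of Cyp4p1, Cyp4p2 and Cyp4p3, 2 genes were higher, while 1 of 13 other tested genes within 50 kb was higher and 3 lower. Both are to be read beside the 15.1% of all tested genes that were higher and the 12.5% that were lower.

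Across the tested P450 genes, those called lower had a median level of 21.1 CPM per kb (mean of both groups), those called higher 13.3 CPM per kb and those not called 4.41 CPM per kb. Of the 20 most abundant per kb, 8 were called lower, 6 higher and 6 not called, where 12.5% of all tested genes were lower and 15.1% higher. A test has more power at higher counts, so these shares are not independent of depth.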
